A study of Mus musculus with 6 samples.

Results

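The 10 genes described here encode receptors that hold myeloid cells in check, with relatives of those receptors, and the ligands that set them off. They were taken by symbol, through the Ensembl identifiers, from the 54752 genes of the count tables, and all 10 passed the filter on low counts. The ligands are Cd200 and Cd47. The receptors are Cd200r1, Cd200r4, Sirpa, Cd22, Cd33, Siglece, Lilrb4a and Pilra. The RNA came from the right hippocampus of male C57BL/6 mice (C57BL/6 J in the methods) of wild-type (WT) genotype, with 1 library per mouse and 3 mice in each group. In BCAS mice both common carotid arteries were wrapped with a microcoil, the narrower one on the right, which lowers blood flow to the brain for weeks. Sham mice had the operation without coils. Tissue was taken 3 weeks after surgery, and the labels give a time of 14 weeks for every mouse without saying what it counts. Each library holds tissue of the whole right hippocampus, so neurons, glia, vessels and any blood cells are pooled in it.

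Microglia, the resident macrophages of the brain, are kept quiet in part by signals from the cells around them. CD200, found on neurons and endothelium, binds the inhibitory receptor CD200R1 on myeloid cells. CD47, found on most cells, binds SIRPα and acts as a "don't eat me" signal that restrains phagocytosis. The Siglecs, here CD22, CD33 and Siglec-E, read sialic acid on neighbouring glycans, and LILRB4 and PILRα are further inhibitory receptors. Most of these receptors carry tyrosine motifs called ITIMs in their tails, which recruit phosphatases such as those encoded by Ptpn6, Ptpn11 and Inpp5d. CD200R4 is an activating relative of CD200R1 that signals through the adaptor encoded by Tyrobp.

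Both ligands and the pair of CD200 receptors lie on chromosome 16 in the mouse build mm10. In the GENCODE annotation used for counting, Cd200 is at chr16:45382135-45409053 on the minus strand and Cd47 at chr16:49800533-49915010 on the plus strand. Cd200r1 lies at chr16:44765736-44794978 and Cd200r4 at chr16:44811733-44839150, both on the plus strand. The Siglec members are on the minus strand of chromosome 7, with Cd22 at chr7:30865402-30880342, Cd33 at chr7:43524216-43544428 and Siglece at chr7:43651070-43660161. Sirpa is at chr2:129592835-129632228 on the plus strand. Lilrb4a is at chr10:51490956-51496611 on the plus strand, and Pilra at chr5:137821952-137836281 on the minus strand.

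The sequences before the start sites of 4 members are shown to set a ligand beside receptors that responded differently. They come from the RefSeq annotation of GRCm38.p6, whose promoter table held 7 members and not Cd200r1, Sirpa or Lilrb4a. Each is written 5′ to 3′ on the strand of its gene and ends at or just before the start site. Capitals mark the letters GAGGAA, the core of sites for PU.1, the master regulator of myeloid cells, on either strand, so that the reverse complement TTCCTC is marked too.
Siglece (chr7:43660162-43660411, minus strand): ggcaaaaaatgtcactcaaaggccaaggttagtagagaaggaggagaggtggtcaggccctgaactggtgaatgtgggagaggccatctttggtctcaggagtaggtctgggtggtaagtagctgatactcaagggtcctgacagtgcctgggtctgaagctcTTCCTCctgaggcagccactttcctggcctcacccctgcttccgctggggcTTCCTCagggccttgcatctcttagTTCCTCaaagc
Pilra (chr5:137836282-137836528, minus strand): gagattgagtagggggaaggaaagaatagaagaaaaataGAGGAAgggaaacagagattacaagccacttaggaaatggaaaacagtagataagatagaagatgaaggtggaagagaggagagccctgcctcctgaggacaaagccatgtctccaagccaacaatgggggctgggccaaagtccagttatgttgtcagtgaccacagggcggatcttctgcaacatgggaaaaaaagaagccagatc
Cd200r4 (chr16:44820478-44820727, plus strand, at a RefSeq start inside the longer GENCODE gene): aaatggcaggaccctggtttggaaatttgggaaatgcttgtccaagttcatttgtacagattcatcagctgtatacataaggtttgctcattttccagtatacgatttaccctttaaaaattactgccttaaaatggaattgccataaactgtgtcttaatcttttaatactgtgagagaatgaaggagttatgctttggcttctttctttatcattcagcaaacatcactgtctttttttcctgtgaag
Cd200 (chr16:45409054-45409303, minus strand): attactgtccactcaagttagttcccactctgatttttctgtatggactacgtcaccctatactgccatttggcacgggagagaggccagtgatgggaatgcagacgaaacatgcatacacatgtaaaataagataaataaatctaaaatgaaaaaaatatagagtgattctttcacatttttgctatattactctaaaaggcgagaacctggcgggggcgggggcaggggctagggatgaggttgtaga
GAGGAA occurred 3 times before Siglece and 1 time before Pilra, and not in the stretches shown for Cd200r4 and Cd200. In the full windows, from 250 bases before the start to 50 after it, Cd33 and Cd200 each held 1 match, the one in Cd200 lying after the start. Cd22 and Cd47 held none. Of 32851 RefSeq promoter windows, 28.3% held the letters at least once, so a match is common.These matches describe the letters and do not show binding.

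The libraries held 29652456 to 35607098 counts each. Counts were scaled to CPM, the counts of a gene relative to the library total, with the TMM correction of edgeR for library composition, and its quasi-likelihood test was run over 18617 genes. A gene was called at an adjusted P below 0.05. A count of 0 is read as up to 3 counts. This limit was 0.0874 to 0.0994 CPM and covers counting error only. It takes counts as independent, whereas the mates of a fragment were counted separately, so it may be too low. All 10 markers of hippocampal neurons were detected. They summed to 1017 to 1083 CPM in sham mice and 489 to 684 CPM in BCAS mice. No other tissue was set beside them, so this detection cannot test the tissue label. All 16 microglia markers rose, among them Csf1r (log2 fold change 2.58) and P2ry12 (1.54), while 18.0% of all tested genes were called higher. The sum of the 16 markers went from 490 to 517 CPM in sham mice to 3309 to 5396 CPM in BCAS mice, highest in BCAS mouse 3. Of 14 neuronal markers, 12 fell and none rose, while 13.2% of all tested genes were called lower. The sum of the 14 markers was 12779 to 13603 CPM in sham mice and 6854 to 9808 CPM in BCAS mice, lowest in BCAS mouse 3. Of 8 astrocyte markers 7 rose, against 18.0% of all tested genes. The sum of the 8 markers was 4476 to 4755 CPM in the sham group and 9545 to 10068 CPM in the BCAS group. Choroid plexus markers ranged from 71.1 to 4089 CPM in sham mice and from 40.9 to 5938 CPM in BCAS mice, and none of these 6 genes was called.

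Most receptors were higher in BCAS mice, and the ligand Cd47 was lower. Of the 8 receptors, 7 rose in BCAS mice, while 18.0% of all tested genes were called higher. The same 7 receptors did not overlap between the groups, all BCAS mice lying above the sham mice, as for 25.3% of tested genes. Of the 2 ligands, Cd47 fell and Cd200 did not pass the test, while 13.2% of tested genes were called lower. A differentially expressed gene (DEG) of the study also needs an absolute log2 fold change above 1. The receptors Cd200r1, Cd200r4, Cd22, Cd33, Lilrb4a and Pilra met this, or 6 of the 10 members, while 8.47% of tested genes rose past it. No member fell past it, as 0.999% of tested genes did. No sham library reached the filter level of 0.302 CPM for Cd200r1, Cd200r4, Cd22, Lilrb4a and Pilra, which entered the test only through the BCAS libraries. For these 5 the calls and the separation of the groups are therefore a description, and the counts that hold them are too. Among the receptors that reached the filter level in sham mice, Sirpa and Cd33 rose and Siglece was not called, while 18.0% of all tested genes rose. In whole tissue, more cells of a type and more RNA per cell cannot be told apart.

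**Figure D1:**
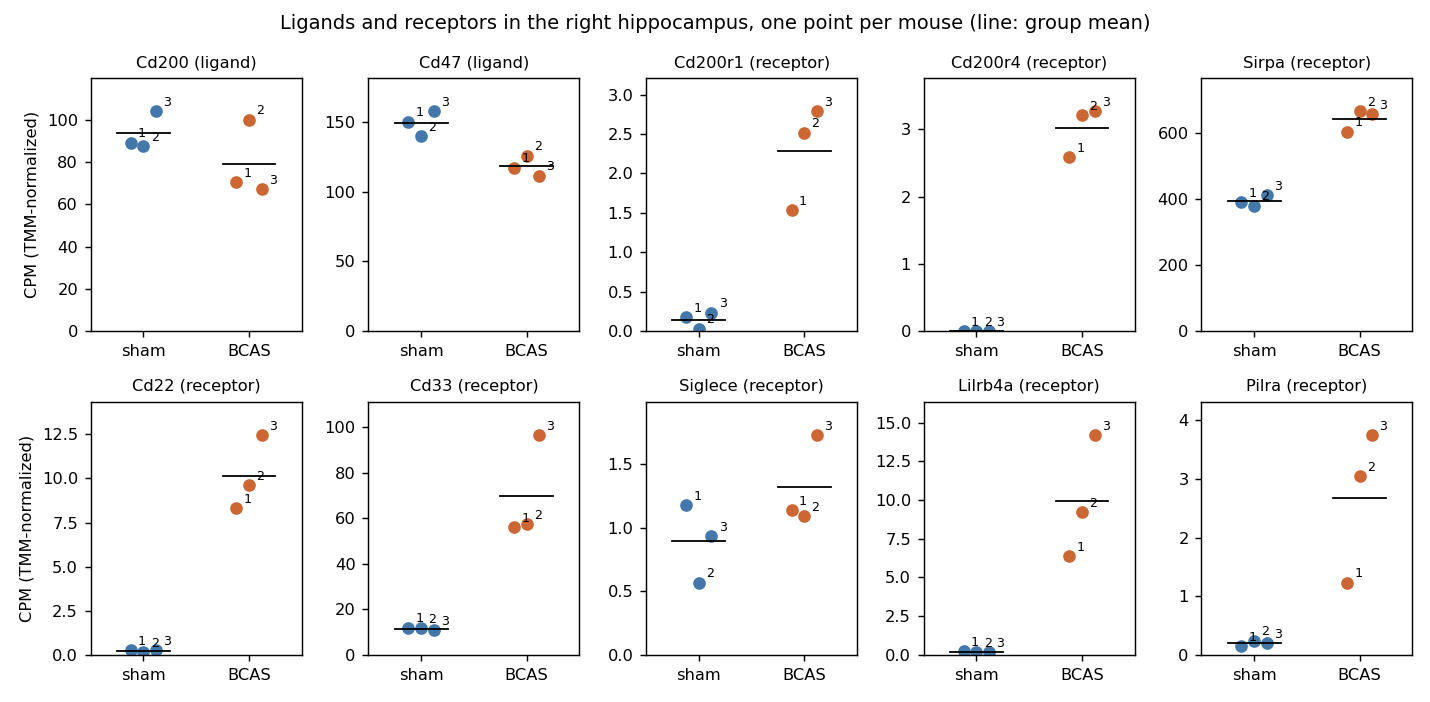
Level of each of the 10 members in CPM on a linear axis, with 1 point per mouse, 3 sham mice and 3 BCAS mice. BCAS mice lay above all sham mice for 7 receptors, below them for Cd47, and overlapped with them for Cd200 and Siglece. Lines are group means.

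Cd47, the ligand of SIRPα, measured 150.1, 139.9 and 157.5 CPM in sham mice 1 to 3 and 117.2, 125.6 and 111.5 CPM in BCAS mice 1 to 3. Every BCAS mouse lay below every sham mouse, as for 22.7% of tested genes. The mean fell from 149 ± 8.84 CPM (SD, n = 3) to 118 ± 7.13 CPM, and the log2 fold change was -0.34 (SE 0.08, adjusted P = 0.0119 with edgeR). Without sham mouse 3, the log2 fold change was -0.30, about as large, and the adjusted P was 0.0535.

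Cd200, the ligand of CD200R1, measured 89.1, 87.4 and 103.8 CPM in sham mice and 70.5, 99.96 and 67.1 CPM in BCAS mice. BCAS mice 1 and 3 lay below all sham mice, whereas BCAS mouse 2 lay among them. The log2 fold change was -0.24 (SE 0.15, adjusted P = 0.256 with edgeR), with a 95% interval from -0.57 to 0.10. Without BCAS mouse 2 it was -0.45 with an adjusted P of 0.00632. Leaving out any other mouse gave -0.29 to -0.14, with a call in none of these, and the value was nearest to 0 without BCAS mouse 3 (-0.14, adjusted P = 0.566), sham mouse 3 (-0.16, adjusted P = 0.553) or BCAS mouse 1 (-0.16, adjusted P = 0.507). BCAS mouse 2 also had the highest summed neuronal markers of the BCAS group, 9808 CPM against 9149 and 6854 CPM. The summed hippocampal neuron markers were instead highest in BCAS mouse 1, at 684, 593 and 489 CPM in BCAS mice 1 to 3. Choroid plexus markers were lowest in sham mouse 3 (71.1 CPM) and BCAS mouse 2 (40.9 CPM), which had the highest Cd200 and Cd47 of their groups. The part of these differences in the ligand levels was not tested.

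Both ligands were set against the neuronal markers within each library. The mean log2 CPM of the 14 markers went from 9.25 ± 0.05 (SD, n = 3) in sham mice to 8.66 ± 0.22 in BCAS mice, a difference of -0.59. On this scale Cd200 minus the neuronal mean was -2.73, -2.81 and -2.60 in sham mice and -2.59, -2.19 and -2.34 in BCAS mice. Cd47 minus the neuronal mean was -1.973, -2.127 and -2.002 in sham mice and -1.858, -1.862 and -1.613 in BCAS mice. Both ligands were thus higher relative to the neuronal mean in every BCAS mouse, by 0.34 for Cd200 and 0.26 for Cd47. Endothelium, which also carries CD200, had 5 of 8 markers called higher, against 18.0% of all tested genes. These 8 markers summed to 288 to 308 CPM in sham mice and 375 to 424 CPM in BCAS mice.

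Sirpa encodes the receptor of CD47, which neurons carry in quantity as well as myeloid cells. It measured 390, 381 and 413 CPM in sham mice and 604, 666 and 658 CPM in BCAS mice. The BCAS mice lay well above the sham mice and close to each other, the means being 394 ± 16.4 CPM (SD, n = 3) and 643 ± 33.7 CPM. The log2 fold change of 0.71 (SE 0.09, adjusted P = 5.38e-04) was the smallest of the 7 rises and below the study's threshold of 1. Sirpa was also the only receptor whose highest level was in BCAS mouse 2, since all the others peaked in BCAS mouse 3.

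Cd200r1, the inhibitory receptor of CD200, was near the limit of detection in sham mice, with 6, 1 and 8 counts. BCAS mice had 50, 76 and 87 counts, far above every sham mouse. In CPM these were 0.177, 0.0299 and 0.233 in sham mice and 1.54, 2.52 and 2.79 in BCAS mice. The mean rose 15.6-fold, with a log2 fold change of 3.92 (SE 0.54, adjusted P = 9.13e-04).

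Cd200r4, the activating relative, had 0 counts in every sham library and 84, 97 and 102 counts in BCAS mice 1 to 3. Its BCAS levels were 2.58, 3.21 and 3.27 CPM. Set against the limit of 3 counts per sham library, with counts taken as independent, it was at least 34.1-fold higher in BCAS mice (adjusted P = 8.35e-05). Mates were counted separately, so this bound may be too high. Only 0.538% of the 100-base windows of its transcripts also occur in another gene, Cd200r2. Cd200r3 had 0 counts in all 6 libraries, and Cd200r2 had 0, 0 and 13 counts in sham mice and 4, 6 and 0 in BCAS mice, so neither passed the filter.

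Cd22, best known as an inhibitory co-receptor of B cells and also found on microglia, had 9, 5 and 9 counts in sham mice and 270, 290 and 389 in BCAS mice. Its mean rose from 0.226 ± 0.066 CPM (SD, n = 3) to 10.1 ± 2.13 CPM, with a log2 fold change of 5.46 (SE 0.29, adjusted P = 1.16e-05). No sham mouse came near the BCAS mice. Among 8 B cell markers, 5 passed the filter and 2 of these rose, while 18.0% of all tested genes did. The 2 were Cd79b (2.31) and Ighm (1.93), which are named here after their values were seen, as are the next pair. Pax5 (-0.54, adjusted P = 0.453) and Cr2 (-0.72, adjusted P = 0.316) were not called. The sum of the list was 12.1 to 24.2 CPM in sham mice and 49.4 to 78.5 CPM in BCAS mice, of which Ighm alone gave 10.7 to 22.1 CPM and 46.6 to 74.5 CPM. The other 7 markers summed to 1.40 to 2.12 CPM and 2.82 to 3.97 CPM. Ms4a1, a defining B cell gene, was barely detected in either group, with 0, 2 and 2 counts in sham mice and 12, 2 and 2 in BCAS mice. Cd79a had 5, 20 and 6 counts in sham mice and 13, 13 and 26 in BCAS mice (adjusted P = 0.332).

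Cd33, a Siglec of myeloid cells whose mouse protein differs from the human one in its tail, was already well measured in sham mice at 11.97, 11.78 and 10.81 CPM. BCAS mice had 56.1, 57.3 and 96.5 CPM, with BCAS mouse 3 well above the other two. The log2 fold change was 2.60 (SE 0.21, adjusted P = 5.10e-05), a 6.07-fold difference of means.

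Siglece, the main CD33-related Siglec of mouse myeloid cells, was the exception among the receptors. It had 40, 19 and 32 counts in sham mice and 37, 33 and 54 in BCAS mice, or 1.18, 0.568 and 0.932 CPM against 1.14, 1.09 and 1.73 CPM. The groups overlapped, with only BCAS mouse 3 above all sham mice. The log2 fold change was 0.56 (SE 0.37, adjusted P = 0.285), with a 95% interval from -0.28 to 1.40. A rise of the size seen for Cd33 lies outside this interval and one of the size of Sirpa lies within it. Leaving out 1 mouse gave 0.31 (without BCAS mouse 3) to 0.81 (without sham mouse 1), with a call in none of these. Among the 7 members with a promoter entry, Siglece held the most GAGGAA matches.

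Lilrb4a, which encodes the inhibitory receptor gp49B, measured 0.236, 0.179 and 0.175 CPM in sham mice and 6.37, 9.21 and 14.2 CPM in BCAS mice. The groups lay far apart, with a log2 fold change of 5.63 (SE 0.38, adjusted P = 2.62e-05), within its SE of that of Cd22. Its annotation shares 35.3% of exon bases with Gm49339, a gene model on the same strand with 0 counts in all libraries. Of its 6254 windows of 100 bases, 2201 also occur in other genes, 1941 of them in Gm49339 and 605 in Lilr4b. Reads that fit such stretches of several genes were not counted, so its level is uncertain and may be too low. Lilr4b, which encodes the related gp49A without an inhibitory tail, had 0, 8 and 8 counts in sham mice and 63, 203 and 182 in BCAS mice, with a log2 fold change of 4.90 (SE 0.73, adjusted P = 0.0014).

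Pilra, the inhibitory member of the paired PILR receptors, had 5, 8 and 7 counts in sham mice and 40, 92 and 117 in BCAS mice. BCAS mouse 1 lay well below the other BCAS mice and above every sham mouse. The mean rose from 0.197 ± 0.0463 CPM (SD, n = 3) to 2.67 ± 1.30 CPM, with a log2 fold change of 3.74 (SE 0.50, adjusted P = 7.90e-04). Pilra shares 15.1% of its exon bases with Zcwpw1 on the opposite strand, and reads on both genes were not counted. Zcwpw1 had 106 to 157 counts in the sham group and 184 to 187 in the BCAS group. The activating partner Pilrb1 had 0 counts except for 4 in BCAS mouse 3. Its relative Pilrb2 had 0 counts in every sham mouse and 3, 1 and 10 in BCAS mice, and neither gene was tested.

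**Figure D2:**
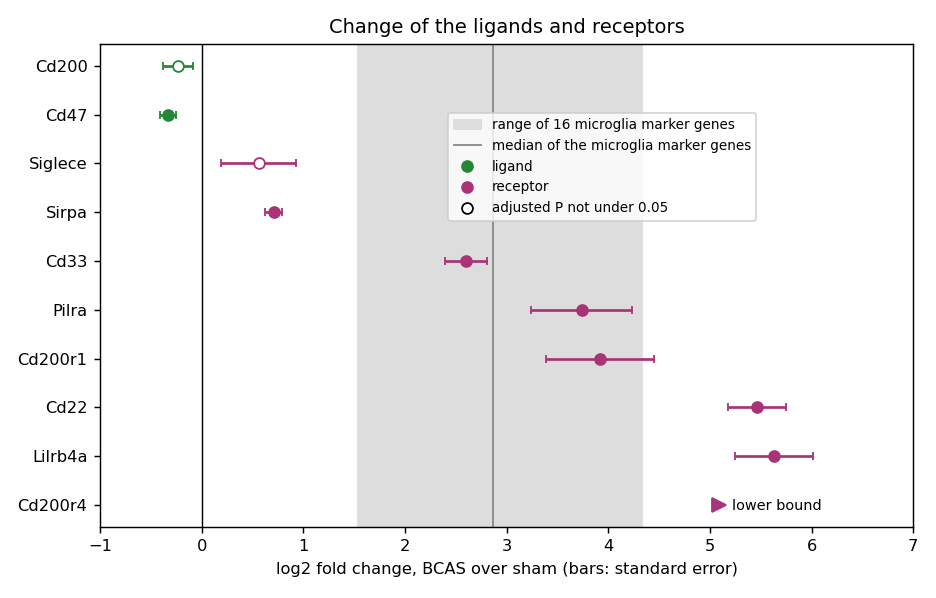
Log2 fold change (BCAS against sham) of each member with its SE, and the range of the 16 microglia markers as a shaded band from 1.54 to 4.33. Cd200r4 is drawn at its lower bound, Cd22 and Lilrb4a lie above the band, Sirpa and Siglece below it, and both ligands below 0.

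Levels of different members can be compared only per length, as CPM per kilobase of exon. In sham mice Sirpa led at 80.3 CPM per kb, followed by Cd200 at 28.1, Cd47 at 23.8, Cd33 at 1.48 and Siglece at 0.483 CPM per kb. Pilra, Cd22, Cd200r1 and Lilrb4a lay between 0.0376 and 0.0637 CPM per kb, where neighbours in the order overlapped, and Cd200r4 was at 0. In BCAS mice Sirpa was at 130.9 CPM per kb, Cd200 at 23.8, Cd47 at 18.8 and Cd33 at 9.004 CPM per kb. Below them came Cd22 at 2.01, Lilrb4a at 1.90 and Cd200r4 at 1.48 CPM per kb, where neighbours in the order overlapped and Cd22 lay above Cd200r4 in all BCAS mice. The place of Lilrb4a is uncertain, since 35.2% of its windows are shared with other genes. Pilra at 0.866, Siglece at 0.714 and Cd200r1 at 0.681 CPM per kb also overlapped and closed the order. Siglece went from the fifth place to the ninth, while the first 4 members kept their order.

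Summed over the 8 receptors, the level was 81.8, 79.5 and 86.1 CPM per kb in sham mice and 135.9, 150.6 and 156.3 CPM per kb in BCAS mice. Sirpa made up 97.4% ± 0.251 (SD, n = 3) of this sum in sham mice and 88.8% ± 2.62 in BCAS mice. Without Sirpa, the sum of the other 7 receptors went from 2.16 ± 0.204 to 16.6 ± 4.91 CPM per kb, 7.72-fold. Cd33 held 1.80% ± 0.162 of the whole sum in the sham group and 6.05% ± 1.65 in the BCAS group. The ligands together measured 51.9 ± 4.01 CPM per kb in sham mice and 42.7 ± 6.52 CPM per kb in BCAS mice. The receptors thus exceeded the ligands 1.59 ± 0.0566 times in sham mice and 3.51 ± 0.562 times in BCAS mice, with no overlap between the groups. This excess came from Sirpa, since the other 7 receptors together stayed below the ligands in every mouse, at 0.0417 ± 0.00474 times their level in sham mice and 0.401 ± 0.159 times in BCAS mice.

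The receptors Cd200r1 and Sirpa were then set against their own ligands inside each library, as the log2 ratio of receptor to ligand CPM. For Cd200r1 and Cd200 this ratio was -8.55, -9.90 and -8.46 in sham mice and -5.46, -5.28 and -4.56 in BCAS mice, a difference of 3.87. For Sirpa and Cd47 it was 1.38, 1.44 and 1.39 in sham mice and 2.37, 2.41 and 2.56 in BCAS mice, a difference of 1.04. All 3 BCAS mice lay above all 3 sham mice in both ratios. The exact two-sided permutation P was 0.1 for each, the smallest that 3 against 3 mice can give, and 0.1 after adjustment over these 2 tests. Cd200r1 reached the filter level in no sham library, with 6, 1 and 8 counts there, so its ratio and P are a description. Its difference also depends on the prior count, being 4.36 with a prior count of 0.5.

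**Figure D3:**
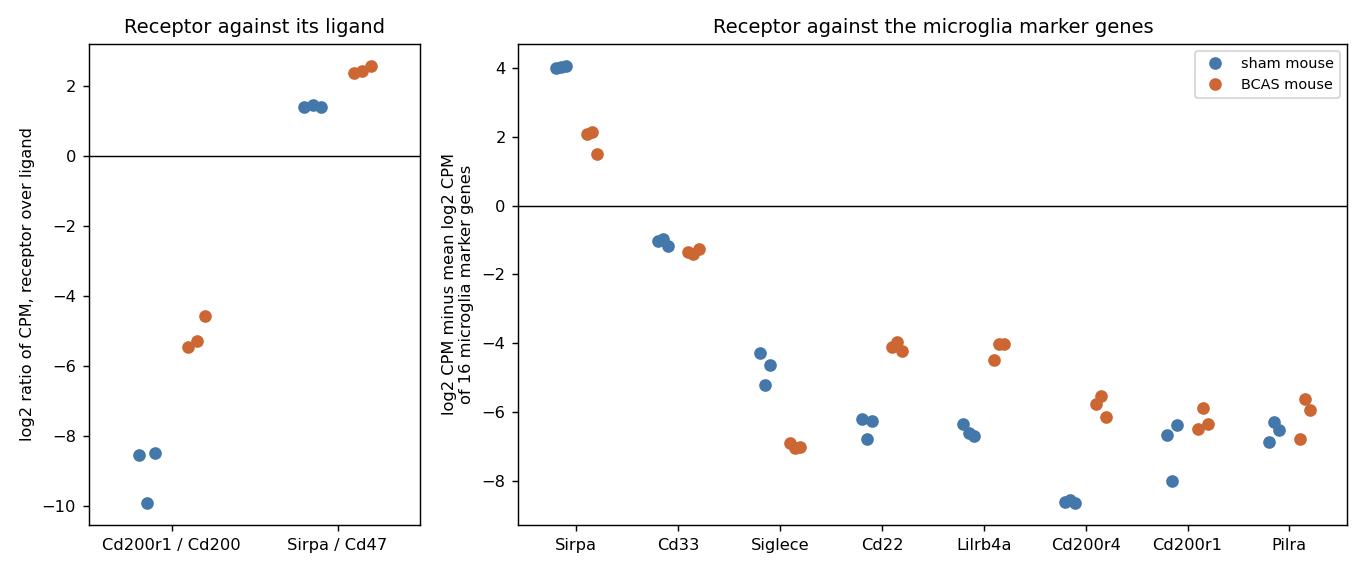
On the left, log2 ratios of Cd200r1 to Cd200 and of Sirpa to Cd47 CPM in each mouse, where all BCAS mice lie above all sham mice. On the right, log2 CPM of each receptor minus the mean log2 CPM of the 16 microglia markers in each mouse, where Sirpa, Siglece and Cd33 lie lower in BCAS mice and Cd22, Lilrb4a and Cd200r4 higher, the sham points of Cd200r4 being set by the prior count of 2.

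The receptors did not move evenly with the microglia markers. The mean log2 CPM of the 16 markers was 4.59 ± 0.0399 (SD, n = 3) in sham mice and 7.43 ± 0.383 in BCAS mice, a difference of 2.84. Relative to this mean, Sirpa was lower in every BCAS mouse by a mean difference of -2.13, Siglece by -2.28 and Cd33 by -0.29. Cd22 was higher in every BCAS mouse by 2.32 and Lilrb4a by 2.37, whereas Cd200r1 (0.78) and Pilra (0.44) overlapped between the groups. Relative to the neuronal mean used above for the ligands, Sirpa was instead higher in every BCAS mouse, by 1.30. A prior count of 2 was added before taking logs, which raises low values, so the differences of receptors with few sham counts are understated. For Cd200r1, with 6, 1 and 8 counts in sham mice, the overlap of the groups depends on this prior count and is no result. Cd200r4 had no counts in sham mice, and its difference on this scale is not given. Markers of border macrophages, the macrophages of the brain's coverings and vessels, were called higher in 6 of 8 cases, against 18.0% of all tested genes, with sums of 10.9 to 15.2 CPM in sham mice and 33.4 to 52.6 CPM in BCAS mice. Of 6 monocyte markers 5 were tested. Ly6c2 and Plac8 entered the test only through the BCAS libraries, and of the other 3 markers 2 rose, while 18.0% of all tested genes did. Fn1, which many other cells express, made up nearly all of their sum. The other 5 monocyte markers summed to 0.5084 to 1.1501 CPM in the sham group and 5.75 to 11.7 CPM in the BCAS group. The 7 T cell markers summed to 2.24 to 3.03 CPM in the sham group and 8.21 to 10.02 CPM in the BCAS group. The 5 that were called higher, Cd3e, Cd3d, Cd3g, Cd8a and Cd4, entered the test only through the BCAS libraries, and Cd2 and Lck were not called. These names and those of the monocyte list were chosen after their values were seen. Of 7 neutrophil markers 1 passed the filter and was not called, Ly6g was at 0 in all libraries, and the list summed to 0.628 to 2.30 CPM in sham mice and 0.769 to 3.71 CPM in BCAS mice. None of 6 mast cell and basophil markers passed the filter. The part of these cells in the receptor levels was not tested.

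The relatives of the members, their ligands and the proteins that carry their signals were taken from 7 lists. Of 76 tested genes in these lists, 45 rose, 8 fell and 23 were not called, while 18.0% of all tested genes rose and 13.2% fell. The median log2 fold change was 1.03 against 0.02 over all tested genes. Lilr4b, Lilra5, Cd300lf, Ly9 and Fgr, all among the 45, reached the filter level in no sham library and entered the test only through the BCAS libraries, so counts and medians that hold them are a description. Of the other 71 genes 40 rose and 8 fell. Several of these genes are expressed mainly by microglia, whose markers rose as given above.

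The genes of the CD200 and SIRP families and their immediate partners had 4 tested members. Thbs1 encodes thrombospondin, another ligand of CD47, and it rose with a log2 fold change of 2.11 (SE 0.21, adjusted P = 1.54e-04). Dok1 (2.19) and Dok2 (1.92), the adaptors through which CD200R1 signals, rose as well. Rasa1, the Ras inhibitor that these adaptors recruit, fell by 0.31 on the log2 scale (SE 0.07, adjusted P = 0.0131).

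Among 4 tested Siglec relatives 3 rose, against 18.0% of all tested genes. Siglec1, the sialoadhesin of macrophages, had 8, 13 and 9 counts in sham mice and 138, 301 and 474 in BCAS mice, and rose by 5.03 on the log2 scale (SE 0.51, adjusted P = 1.77e-04). Siglecf rose by 3.66 and Siglech, an adaptor-linked Siglec of microglia, by 2.30. Mag, the Siglec of oligodendrocytes, was not called (0.13, adjusted P = 0.641), and none of the 8 oligodendrocyte markers was either. Siglecg had 6, 0 and 2 counts in the sham libraries and 8, 14 and 4 in the BCAS libraries and was not tested.

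The enzymes that make and attach sialic acid, which forms the ligands of the Siglecs, were called in both directions. Of 28 tested genes 6 rose, 6 fell and 16 were not called, with a median log2 fold change of -0.08. These shares are near those of all tested genes, 18.0% higher and 13.2% lower, and are no result about the list. St6gal1, which adds sialic acid in the linkage that CD22 binds, rose by 1.02 (SE 0.11, adjusted P = 2.79e-04). St3gal6 rose by 1.09 and St8sia2, a polysialic acid synthase, by 1.05. St6galnac5, a ganglioside sialyltransferase, fell by 0.86 on the log2 scale (SE 0.14, adjusted P = 0.00226), from 240 ± 16.2 CPM (SD, n = 3) to 132 ± 26.8 CPM.

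In the list of LILR, PIR and PILR relatives and ligands, 6 genes were tested, of which 4 were called higher and 1 lower. Without Lilr4b and Lilra5, which entered the test only through the BCAS libraries, 2 of 4 rose and 1 fell, while 18.0% of all tested genes rose and 13.2% fell. Pirb, the mouse relative of the inhibitory LILRB receptors, rose by 2.80 (SE 0.46, adjusted P = 0.0025). It shares 20.8% of its 100-base windows with genes of the same cluster, so its level is uncertain. Lilra5 rose by 2.92. The known PILRα ligands went different ways. Colec12 rose by 1.26, and Npdc1 fell by 0.51 on the log2 scale (adjusted P = 0.00538), a gene named after its value was seen, as was Pianp (-0.34, adjusted P = 0.0663).

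Of 14 tested genes listed as other inhibitory receptors of myeloid cells, 13 were called higher, with a median log2 fold change of 3.16. The list does not mean that each gene is inhibitory or confined to myeloid cells. Without Ly9 and Cd300lf, which entered the test only through the BCAS libraries, 11 of 12 rose, against 18.0% of all tested genes. The 4 with the largest changes were Ly9 (6.92), Cd300lf (5.71), Cd72 (5.68) and Fcgr2b (4.01), the last being the inhibitory Fc receptor. Ly9 had 2, 9 and 4 counts in sham mice and 502, 473 and 750 in BCAS mice. Clec4a2 was not called (0.55, adjusted P = 0.336) and is named after its value was seen.

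The effectors of the ITIM tails rose in 5 of 8 cases, against 18.0% of all tested genes. Ptpn6, the phosphatase of blood cells and microglia, went from 4.15 ± 0.827 CPM (SD, n = 3) in sham mice to 49.4 ± 16.2 CPM in BCAS mice (log2 fold change 3.57, SE 0.25, adjusted P = 2.75e-05). Inpp5d (3.01), Socs3 (2.83) and Csk (1.07) rose too. Ptpn11, the phosphatase that nearly all cells express, was at 201 ± 11.9 CPM and 219 ± 12.4 CPM and was not called (0.13, adjusted P = 0.264).

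The opposing ITAM branch, the adaptors and kinases of activating receptors, had 11 of 12 genes called higher, with a median of 2.93. Without Fgr, which entered the test only through the BCAS libraries, 10 of 11 rose, against 18.0% of all tested genes. Tyrobp, the adaptor of CD200R4 and PILRβ, had 271, 246 and 280 counts in sham mice and 3339, 3512 and 4851 in BCAS mice (log2 fold change 3.99, SE 0.16, adjusted P = 4.87e-06). Hcst, a related adaptor, rose by 1.91 (SE 0.51, adjusted P = 0.0216). The kinase genes Fgr (6.01), Btk (3.46) and Syk (2.45) and the adaptor gene Fcer1g (3.66) rose as well. Fyn was not called (-0.17, adjusted P = 0.101) and is named after its value was seen.

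**Figure D4:**
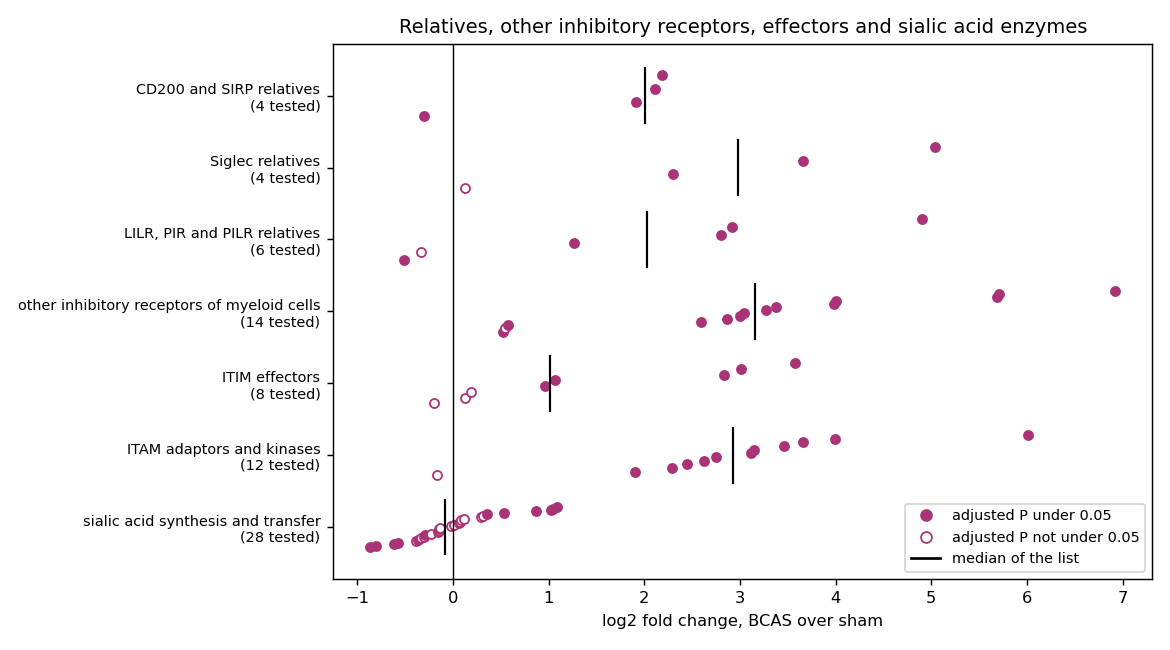
Log2 fold change (BCAS against sham) of every tested gene in the 7 lists of relatives, ligands and effectors, with filled points for an adjusted P below 0.05 and a line at the median of each list. The sialic acid enzymes lie around 0 with a median of -0.08, and the other inhibitory receptors and the ITAM genes lie mostly above 0 with medians of 3.16 and 2.93.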

How the data were processed

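Total RNA of the right hippocampus was sequenced as paired-end reads in 3 mice per group. The authors, by the submitters' processing notes and the methods, trimmed reads with Trim Galore, aligned them to mm10 with HISAT2 and used featureCounts 1.6.3 for counts per gene. The deposited counts are raw whole numbers per Ensembl gene. Their file headers name featureCounts 2.0.3 and GENCODE vM20, where the methods name RefSeq genes. By the command in the headers, strand was ignored, mates were counted separately, and reads aligned to several places or several genes were left out. Of 54752 genes, 29 had no symbol.

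Groups and replicate numbers were taken from the sample titles. Inside the BCAS tables the count columns carry the numbers 2 to 4, where the titles have 1 to 3, so the mouse numbers used here, and the numbers in the replicate block, follow the titles. P values measure only the spread between samples within the groups, 3 in each. The edgeR fit estimates this spread for each gene with help from the other tested genes. Genes were kept by filterByExpr, scaled by TMM (factors 0.964 to 1.05) and compared with the quasi-likelihood test of edgeR 4.0.16 in R 4.3.3, with Benjamini-Hochberg adjustment over 18617 genes and the group as the only term. The biological coefficient of variation was 0.161. Log2 CPM used a prior count of 2. Intervals of log2 fold changes are SE times the t quantile. Alternatives were DESeq2 1.42.0, limma-voom (limma 3.58.1), RLE factors, library totals, 2 other filters, glmTreat, thinned counts, halved counts, a replicate block, a prior count of 0.5 for the ratios, and leaving out each mouse. The fit was tested on simulated data. Windows of 100 bases shared between genes were found in the GENCODE vM21 transcripts.

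The members and lists were chosen with earlier results of these data known. Named genes are all members, up to 4 called genes per list with the largest absolute log2 fold change and a mean of at least 0.5 CPM, and a short set of relatives and markers. Of 218 symbols in the lists, 6 had no match and 1 had 2 identifiers, and these were left out. 1 marker gene is not reported here.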

Additional observations from a re-analysis of the deposited data

How the results depend on the processing

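Across 160 values, the 10 members under 16 alternatives each, 156 kept their direction and their side of the threshold, 3 lost the call, 1 gained it and 0 reversed. The receptors called higher were 7 under every alternative except glmTreat against a log2 fold change of 1, where Sirpa was not called and the count was 6. The members past the study thresholds were 6 throughout. Under glmTreat, 0 ligands and 0 of the 76 genes of the pathway lists were called lower. Leaving out 1 mouse in turn gave 0 to 2 ligands called lower, 0 without sham mouse 3 and 2 without BCAS mouse 2. Without sham mouse 3, Cd47 had a log2 fold change of -0.30 (adjusted P = 0.0535 with edgeR), against -0.34 with all mice. The pathway genes called lower were then 5 to 12, 5 without sham mouse 3 and 12 without BCAS mouse 2. Pathway genes called higher ran from 31 under glmTreat to 47. The log2 ratio difference of Cd200r1 to Cd200 ran from 3.40 to 4.36 and that of Sirpa to Cd47 from 0.98 to 1.08. With a replicate block the ratio differences were again 3.87 and 1.04 (exact sign-flip P = 0.25, the smallest that 3 pairs allow), the receptors called higher 7, the ligands called lower 1, and the members past the thresholds 6. Residual correlations of libraries with the same number were 0.04, -0.31 and -0.16 for replicates 1 to 3, and only replicate 1 matched its own number best. With 3 libraries per group these values cannot decide whether the numbers pair the mice, and pairing by the column numbers was not examined. The block changed no call of a member while total calls went from 5819 to 4532. Total calls ran from 3782 without sham mouse 3 to 6646 without BCAS mouse 2, and were 818 under glmTreat. With library totals in place of TMM, 68.3% of calls were higher in BCAS mice, against 57.7%, and no member changed its call. The cause of these shifts was not tested, except that glmTreat asks for a larger change. With 1 to 9 counts per sham library, the folds of Cd200r1, Cd22, Lilrb4a and Pilra are imprecise.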
